A study of Homo sapiens with 2 samples.

Results

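HOX genes encode homeodomain transcription factors that give cells their position along the body axis. In mammals they lie in the clusters HOXA, HOXB, HOXC and HOXD, where the paralogue group of a gene follows its place in the cluster, from group 1 at the 3′ end to group 13 at the 5′ end. Genes of the 5′ groups pattern the lower trunk, gut and urogenital tract, and HOXB13 is known as a marker of prostate epithelium. Polycomb proteins keep HOX genes silent, Trithorax proteins keep them active, and retinoic acid and CDX factors set them in the embryo.

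The HOX genes were followed in PC3 cells, an established human prostate cancer line, after knockdown of the transcriptional coactivator SUB1. Members were all non-control probes whose array label was HOX, a cluster letter and a number. All 39 HOX genes of the 30483 genes on the array had a probe, 28 of them 1 probe and 11 more than 1. The members had 52 HOX-labelled probes, each printed as 1 spot, so no HOX probe has a spot-to-spot error of its own.

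PC3 cells were transfected with SUB1 siRNA 1, SUB1 siRNA 2 or Non-T (non-targeting) siRNA, a second time a day later, and harvested 72 h after the first transfection. Each of 2 dual-colour Agilent arrays, both on the same slide, held RNA of 1 SUB1 siRNA in Cy5 and of Non-T siRNA in Cy3. Each siRNA therefore had 1 array (n = 1), dyes were not swapped, and whether both arrays carried the same Non-T extract is not stated. Dye bias of a gene and its response to the siRNA cannot be told apart. The comparison asks how HOX transcripts differed between knockdown and Non-T cells.

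SUB1 itself had log2 ratios of -3.30 (siRNA 1) and -3.26 (siRNA 2) at its brightest probe, and all 4 of its probes were lower on both arrays. Between 54.3% and 67.2% of gene spots were well above background in a channel, and no spot was saturated. All 6 epithelial markers were above background in Cy3, and 1 of them, the adhesion receptor CD44, was past 2-fold lower with siRNA 2 (log2 ratios of -0.83 and -1.04). KLK3, known as low in PC3, had Cy3 intensities of 18630 and 15440 at 1 probe, while its other 2 probes were not above background in Cy3. Of the markers of other cell types, 3 of 6 fibroblast, 2 of 5 leukocyte and 1 of 4 endothelial genes were above background in Cy3, none with an intensity over 163.9, while median Cy3 over gene spots was 128 and 114. Among these lists COL1A1, a fibroblast collagen, had log2 ratios of 0.66 and 0.45, and FOLH1, a luminal marker, 0.58 and 0.46. The other kept fibroblast genes were not higher with both siRNAs to this extent. DCN had -0.19 and -0.11, LUM 0.47 and -0.23, and PDGFRA -0.01 and 0.04. These genes were named after their values were seen, and their part in the HOX ratios was not tested. PTPRC, COL1A2, COL3A1, CDH5 and KDR were above background in neither dye.

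The promoters shown are those of the HOXA genes whose ratios were highest and of HOXA11-AS, the antisense RNA between them. They were chosen by the size of these ratios. HOXA11, which also lies between them and was also above 0 on both arrays (0.16 and 0.05), is not shown. The windows come from RefSeq (GRCh38.p14), run from 250 bases before to 50 bases after a transcript start, and stand 5′ to 3′ on the gene's strand. Capitals mark matches, on either strand, to 3 short motifs. The GC box was searched as GGGCGG. The pentamer CCAAT was searched as written, and the letters taken for the core of a TATA promoter were TATAAA. No match of one motif overlapped a match of another in these windows. The windows are HOXA9 at chr7:27165488-27165787 (minus strand), HOXA10 at chr7:27174271-27174570 (minus strand), HOXA11-AS at chr7:27185158-27185457 (plus strand) and HOXA13 at chr7:27200042-27200341 (minus strand).
HOXA9: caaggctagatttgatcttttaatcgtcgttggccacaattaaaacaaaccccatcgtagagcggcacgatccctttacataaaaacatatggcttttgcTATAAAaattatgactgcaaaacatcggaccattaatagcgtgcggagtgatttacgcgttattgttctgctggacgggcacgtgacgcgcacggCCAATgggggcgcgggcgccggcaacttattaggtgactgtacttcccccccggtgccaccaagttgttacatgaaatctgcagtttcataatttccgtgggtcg
HOXA10: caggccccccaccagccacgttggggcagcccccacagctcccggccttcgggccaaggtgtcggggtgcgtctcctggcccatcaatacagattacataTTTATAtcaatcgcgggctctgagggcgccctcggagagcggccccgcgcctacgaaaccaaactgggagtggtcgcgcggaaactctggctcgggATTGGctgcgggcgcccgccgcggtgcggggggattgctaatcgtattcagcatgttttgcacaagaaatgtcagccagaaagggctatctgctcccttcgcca
HOXA11-AS: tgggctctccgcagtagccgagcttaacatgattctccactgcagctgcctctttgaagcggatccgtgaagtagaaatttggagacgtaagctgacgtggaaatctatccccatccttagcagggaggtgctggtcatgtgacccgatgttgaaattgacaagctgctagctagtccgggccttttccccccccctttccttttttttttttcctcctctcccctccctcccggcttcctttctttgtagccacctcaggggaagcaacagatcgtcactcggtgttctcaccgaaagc
HOXA13: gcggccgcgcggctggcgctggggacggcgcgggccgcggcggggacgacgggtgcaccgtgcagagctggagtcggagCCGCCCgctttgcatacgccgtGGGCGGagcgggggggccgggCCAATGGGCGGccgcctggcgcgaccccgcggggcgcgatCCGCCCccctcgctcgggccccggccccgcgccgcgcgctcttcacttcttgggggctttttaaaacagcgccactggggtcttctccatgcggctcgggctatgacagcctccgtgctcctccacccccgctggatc

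HOXA9 and both HOXA10 windows of the table held 1 CCAAT and 1 TATAAA match each. The HOXA13 window held 4 GC boxes, 1 CCAAT match and no TATAAA match, with 44 CpG dinucleotides and 76.3% G or C. The HOXA11-AS window held none of these motifs. It overlapped the HOXA11 window, on the other strand, by 275 of 300 bases. Of 35116 windows in the table, 45% held a GC box, 34.6% a CCAAT match and 11.5% a TATAAA match. Of the 27 windows given for 20 HOX genes, some of them shared or overlapping, 48.1%, 66.7% and 18.5% did. In the HOXA10 window shown, both matches stand on the opposite strand, as TTTATA and ATTGG. Distance from the transcript start was not part of the search, so a TATAAA match does not mark a TATA promoter. The matches are a description of the letters and were not tested.

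In Non-T cells 16 of 39 HOX genes (41%) had a probe well above background in Cy3 on both arrays, against 52.7% of all genes on the array. The detected genes were HOXA3, HOXA4, HOXA5, HOXA7, HOXA9, HOXA10 and HOXA13, HOXB3, HOXB4, HOXB5, HOXB6, HOXB7 and HOXB13, HOXC9 and HOXC13, and HOXD9. By cluster these were 7 of 11 HOXA, 6 of 10 HOXB, 2 of 9 HOXC and 1 of 9 HOXD genes. By position they were 2 of 8 genes of groups 1 to 3, 7 of 15 of groups 4 to 8 and 7 of 16 of groups 9 to 13. Detection thus differed more between clusters than between positions, as a count of genes with no test. HOXB detection formed an unbroken run from HOXB3 to HOXB7, with HOXB13 apart from it at the 5′ end.

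In SUB1 siRNA cells 22 HOX genes (56.4%) were above background in Cy5 on both arrays, against 63% of all genes. HOXA2, HOXA6, HOXA11, HOXB9, HOXC8 and HOXD3 were above background in Cy5 and not in Cy3. That made 15.4% of HOX genes, beside 10.3% of all genes, and Cy5 had more spots above background than Cy3 on both arrays. As a bound for Cy3 on each array, the higher of the lowest detected Cy3 signal and the probe's own signal was taken. Cy5 with siRNA 2 was then at least 1.52-fold higher for HOXD3, at least 1.22-fold for HOXB9 and at least 1.01-fold for HOXA11. With siRNA 1 it was at least 1.06-fold higher for HOXB9 and HOXA2 and at least 1.07-fold for HOXA11, while for HOXD3 Cy5 lay below Cy3. No bound over 1 was found for HOXA6 or for the dimmer HOXC8 probe. For HOXD3 with siRNA 2, and for HOXB9 and HOXA2 with siRNA 1, the bound was the probe's own signal. Their values are thus the measured ratios. Those of HOXB9 and HOXA2 with siRNA 1, 0.08 and 0.09 in log2, lay within the SD between spots of dim repeated probes (0.101). Before correction, Cy5 lay below Cy3 with siRNA 1 for HOXB9 (87.63 and 102), HOXA2 (97.05 and 110.3) and HOXA11 (89.68 and 98.97). The bounds used intensities also scaled between the arrays (Aquantile). All genes with a bound over 1 passed through Cy5 alone, which favours a higher Cy5, so the bounds are no test of a rise. The brighter HOXC8 probe was above background in Cy3 on 1 of the arrays. The other 17 genes were above background in neither dye on both arrays, among them HOXB1, HOXB2, HOXB8, HOXC4, HOXC5, HOXC6, HOXC10, HOXC11, HOXC12, HOXD1, HOXD4, HOXD8, HOXD10, HOXD11, HOXD12 and HOXD13.

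**Figure D1:**
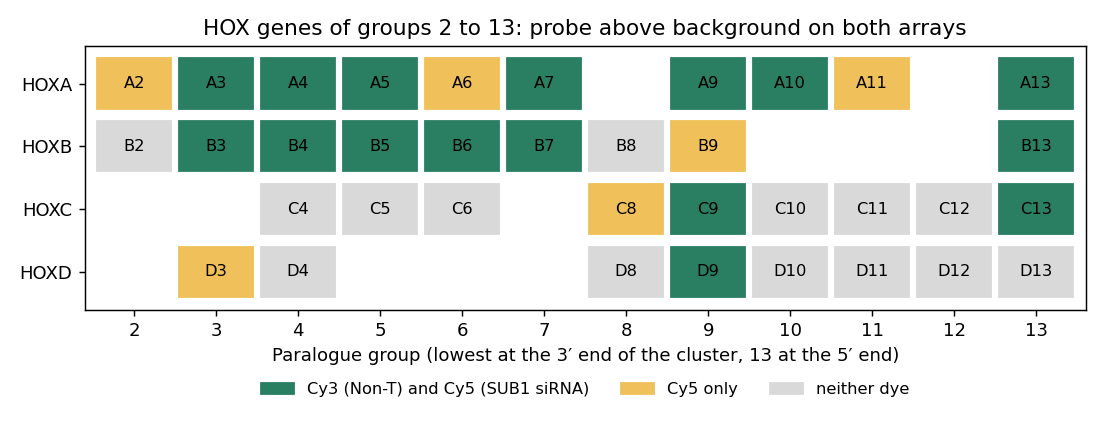
Each tile is 1 HOX gene of paralogue groups 2 to 13, placed by cluster (rows) and paralogue group (columns), and coloured by the dyes in which a probe was well above background on both arrays. Green tiles (16 genes) fill most of HOXA and HOXB, and grey tiles most of HOXC and HOXD.

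Most detected HOX probes were dim. Over the median negative control spot, Cy3 of the 16 genes at their brightest probe ranged from 1.43 to 562 times, with a median of 2.44. Of these, 7 lay under 2 times and 6 over 5 times: HOXA3, HOXA4, HOXA9, HOXA13, HOXB6 and HOXB13. Intensity depends on the probe as well as the transcript, so these values order probes and not mRNA levels. HOXA3 shows this. One probe read 49490 and 43310 in Cy3, and its other probe, for the same transcript accession, 113.7 and 108.5. HOXB13 was bright at both probes, with Cy3 of 6281 and 5292 at the brighter and 4359 and 3542 at the dimmer.

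The ratios were compared for the 22 genes whose probe was above background in at least 1 dye on both arrays. A gene that passed through Cy5 alone was more likely to have a higher ratio, so counts are given for what passed and not for all members. With 1 array per siRNA, a gene was called at a 2-fold change. HOXA13 was called higher with siRNA 1, with siRNA 2 and so with both, and no HOX gene was called lower. Among 19219 genes, 0.208% were past 2-fold upward and 0.609% past it downward with siRNA 1. For siRNA 2 these shares were 0.614% and 1.07%, and 0.052% of genes were past 2-fold upward on both arrays. Higher genes made 25.5% and 36.5% of those calls, but 71% and 72.5% under median centring and 72.3% and 67.7% with Agilent processed signals, so the balance of directions over all genes depends on the scaling.

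The median HOX log2 ratio was 0.02 with siRNA 1 (12 higher, 10 lower than 0) and 0.06 with siRNA 2 (16 higher, 6 lower). Over all genes the median was 0.02 with each siRNA, with 54.1% and 53.6% of genes above 0. For 15 of 22 HOX genes the absolute log2 ratio stayed under 0.5 on both arrays. The values lay on the same side of 0 with both siRNAs for 14 genes, of which 10 were higher and 4 lower. Both ratios are against Non-T cells in Cy3, so they are not independent of each other. The counts under 0.5 and on the same side of 0 were not made over all genes. They therefore show nothing particular to HOX genes.

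In a limma fit of the mean ratio against 0 (n = 2 arrays, Benjamini-Hochberg adjustment), 0 HOX genes passed an adjusted p of 0.05, as against 0.0052% of all genes (1 gene). At an unadjusted p under 0.05, 5 HOX genes (22.7%) passed, near the 20.9% of all genes. The lowest adjusted p of a HOX gene was 0.1126, and it ranged from 0.0578 to 0.175 over 10 other processing settings. This fit leaves out the spread of the controls. Technical error was read from 208 kept probes printed 10 times, whose log2 ratios had a median SD between spots of 0.0777 and 0.074 (0.101 and 0.0955 for the 38 that were no brighter than the median HOX gene).

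**Figure D2:**
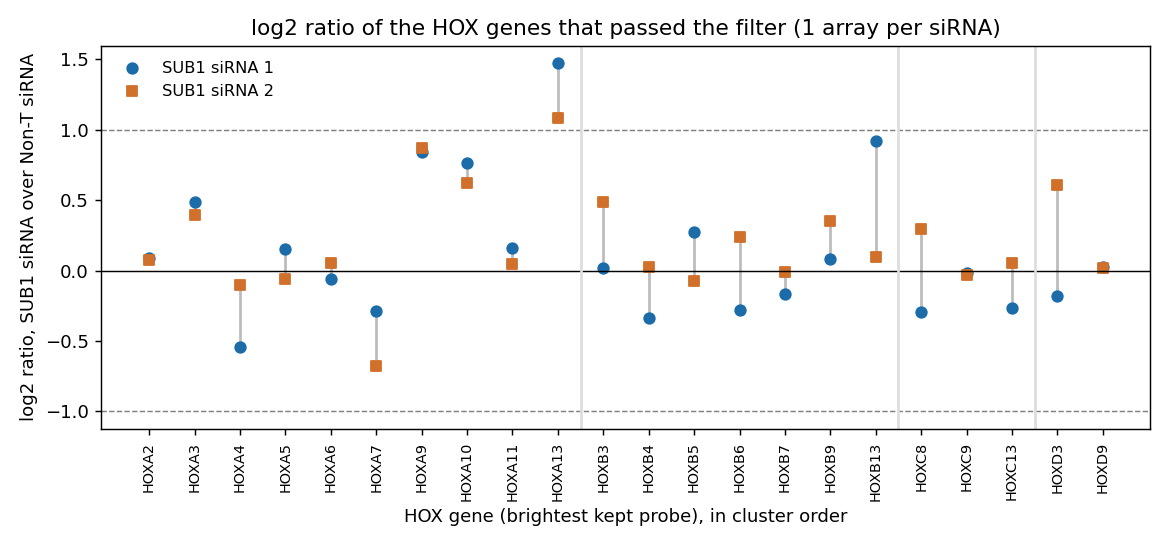
Ratios of knockdown to Non-T cells on the log2 scale (vertical axis) for the 22 HOX genes past the filter at their brightest probe, in cluster order, 1 point per array. Dashed lines mark 2-fold, and only HOXA13 lies past one, at 1.47 and 1.08.

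By the mean of both arrays the highest HOX ratios were those of HOXA13, HOXA9 and HOXA10, all in the 5′ part of HOXA. With siRNA 1 alone, HOXB13 stood between HOXA13 and HOXA9. HOXA13, which patterns the hindgut, limb end and urogenital tract, had Cy3 of 520 and Cy5 of 1685 on the siRNA 1 array, and Cy3 of 434.1 and Cy5 of 1075 on the siRNA 2 array. Cy5 was above Cy3 on both arrays. Its normalized log2 ratios were 1.47 and 1.08, a mean of 1.28 ± 0.13 (limma SE, n = 2, adjusted p = 0.1126). This probe lies at chr7:27203199-27203258 (hg18, minus strand). The dimmer HOXA13 probe, at chr7:27204420-27204479, read Cy3 of 126.2 and 112.6 and Cy5 of 185.8 and 126.1. It gave 0.65 and 0.25, in the same direction and under 2-fold on both arrays, so the call rests on the brighter probe.

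HOXA9, a posterior HOX gene best known from blood progenitors and leukaemia, had Cy3 of 738.3 and Cy5 of 1562 with siRNA 1, and Cy3 of 636.6 and Cy5 of 1377 with siRNA 2. Its log2 ratios of 0.84 and 0.87 differed by 0.03, less than the spot SD (mean 0.86 ± 0.09, SE, n = 2, limma adjusted p = 0.1126). Neither value reached 2-fold, though under median centring both did, at 1.06 and 1.098. The HOXA9 probe lies at chr7:27169113-27169172 (hg18, minus strand).

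HOXA10, which acts in uterine and urogenital development, was dim at both probes. The brighter read Cy3 of 156.1 and 134.3 and Cy5 of 257 and 198.3. Its log2 ratios were 0.76 and 0.62, and those of its other probe 0.99 and 0.74. The probes lie at chr7:27178150-27178209 and chr7:27177760-27177819 (hg18, minus strand), and both were higher on both arrays (adjusted p = 0.1126 in limma for the brighter). With Agilent processed signals the HOXA10 ratios came to 1.78 and 1.47, past 2-fold.

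HOXA11-AS, the antisense RNA at HOXA11 and the only measured transcript of 15 listed noncoding RNAs of the clusters, had Cy3 of 919.2 and 836.9 and Cy5 of 2113 and 1581. Its ratios were 0.94 and 0.65 (limma adjusted p = 0.1126), under 2-fold. It is labelled as its own gene and is no member. HOXA11, on the opposite strand, had Cy5 of 89.68 and 86.36 and was not well above background in Cy3 (98.97 and 95.53). Its log2 ratios were 0.16 and 0.05, beside a spot SD of 0.101 and 0.0955 for dim probes. With Agilent processed signals they came to 0.76 and 0.79, so the HOXA11 value depends on the processing. The probes of the pair do not overlap: HOXA11 lies at chr7:27188718-27188777 and HOXA11-AS at chr7:27195372-27195431 (hg18). The labelling was primed with oligo-dT, and each probe carries a strand in the files.

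**Figure D3:**
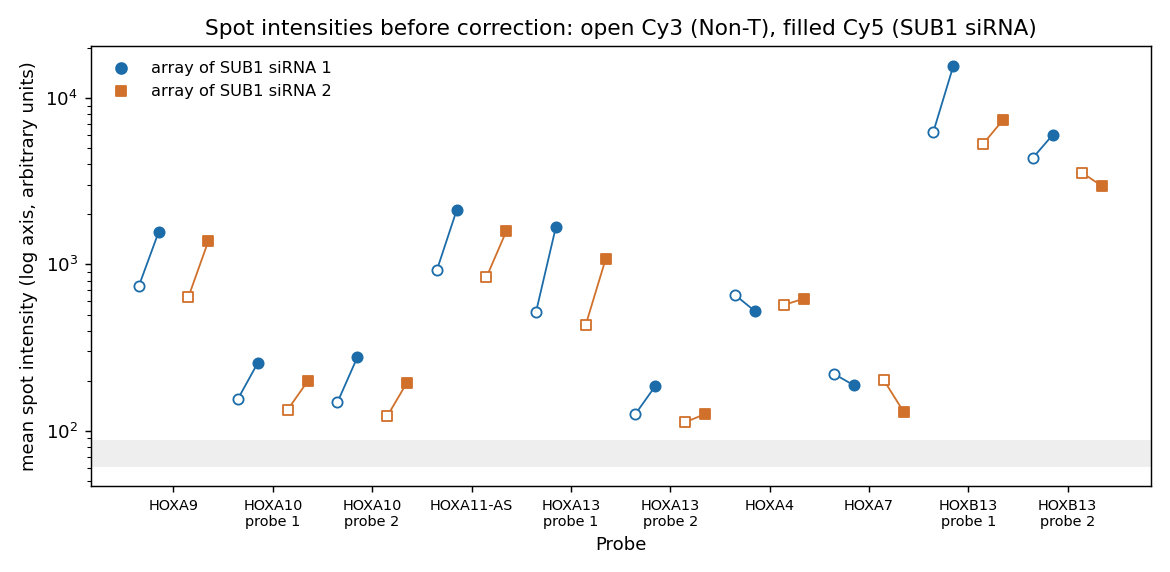
Mean spot intensity before correction (log axis) of the probes described, with Cy3 (Non-T, open) joined to Cy5 (SUB1 siRNA, filled) on the arrays of siRNA 1 (circles) and siRNA 2 (squares); the grey band spans the median negative control spots. Cy5 stood above Cy3 for HOXA9, HOXA10, HOXA11-AS and HOXA13 on both arrays, and the gap between the dyes at both HOXB13 probes differed between the arrays.

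The ranges of the 5′ and 3′ HOXA genes overlapped. With siRNA 1 the 4 kept genes of groups 9 to 13 lay between 0.16 and 1.47, and the 6 kept genes of groups 2 to 7 between -0.54 and 0.49. With siRNA 2 they lay between 0.05 and 1.08, and between -0.68 and 0.40. HOXA7, next to HOXA9, had Cy3 of 219.7 and 202 and Cy5 of 187.6 and 130.1. Its log2 ratios were -0.29 and -0.68, below 0 with both siRNAs (mean -0.48, limma adjusted p = 0.1666). HOXA7 and HOXA9 are neighbours and lay on opposite sides of 0 on both arrays, and neither was called at 2-fold. With Agilent processed signals HOXA7 came to -1.13 with siRNA 2, past 2-fold.

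HOXA4, a gene of the middle of the cluster, had log2 ratios of -0.54 and -0.10 from Cy3 of 657.5 and 571.9 and Cy5 of 525.5 and 623.9. The siRNA 1 value is that of 1 spot on 1 array. The siRNA 2 value was between -0.16 and 0.10 over the other settings, so that its sign depends on the processing. HOXA3, at its bright probe, had Cy5 of 101100 and 84350 and log2 ratios of 0.49 and 0.40 (limma adjusted p = 0.137). Its dim probe gave 0.25 and -0.23, so its probes do not give the same direction with siRNA 2. HOXA5 had 0.16 and -0.06, HOXA6 -0.06 and 0.06, and HOXA2 0.09 and 0.07.

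**Figure D4:**
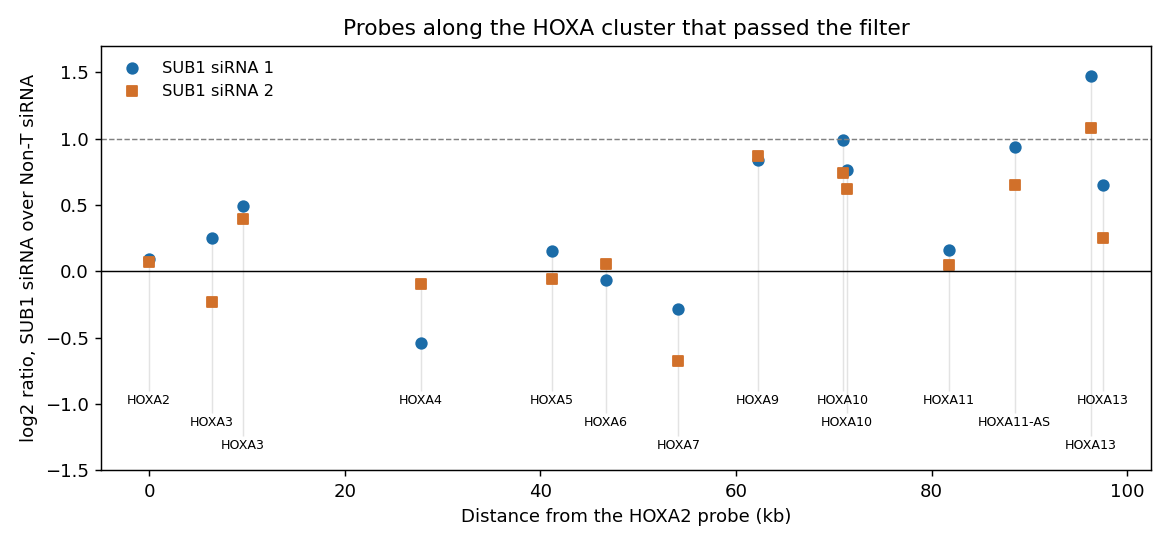
log2 ratio of the HOXA probes that passed the filter and of HOXA11-AS (vertical axis) by the distance of the start from the HOXA2 probe in kb (horizontal axis), with siRNA 1 as circles and siRNA 2 as squares. Probes of HOXA9, HOXA10, HOXA11-AS and HOXA13 lie above 0, with HOXA11 at 0.16 and 0.05 among them and HOXA7 below 0 beside HOXA9.

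HOXB13, the prostate member of the HOXB cluster, differed between the siRNAs. Its brighter probe had Cy3 of 6281 and Cy5 of 15570 with siRNA 1, and Cy3 of 5292 and Cy5 of 7379 with siRNA 2. The log2 ratios were 0.92 and 0.10, under 2-fold on both arrays. The second probe, with Cy5 of 5996 and 2947, gave 0.12 and -0.60. The level of the ratio thus disagreed between probes, while the siRNA 2 minus siRNA 1 difference was -0.82 and -0.72. Between the arrays, log2 Cy3 of the brighter probe differed by -0.25 and log2 Cy5 by -1.07, beside medians over all genes of -0.19 and -0.16, so most of the difference lay in Cy5. With 1 array per siRNA it was not tested. The probes lie at chr17:44157143-44157202 and chr17:44158898-44158957 (hg18, minus strand).

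The rest of HOXB gave small values. HOXB3 had 0.02 and 0.49 at its brightest probe, and its dim probes -0.11 and 0.01, and -0.05 and 0.01. HOXB4 had -0.34 and 0.02, with -0.03 and 0.02 at its other probe. HOXB6 had -0.28 and 0.24 at Cy3 of 786.9 and 672.7, but 0.14 and 0.05 at its dim probe. The HOXB3 and HOXB4 values away from 0 thus stood at 1 probe each, and the HOXB6 probes differed in sign with siRNA 1. HOXB7 had -0.16 and -0.01, and 0.07 and -0.06 at a probe that did not pass the filter. HOXB5 had 0.28 and -0.07, and HOXB9 0.08 and 0.35. In the main processing no HOXB gene reached 2-fold on either array. HOXB13 with siRNA 1 came to 1.25 under median centring and 1.11 in the deposited log2 ratios, and HOXB9 with siRNA 2 to 1.004 with Agilent processed signals. The HOXB2 probes, above background in neither dye on both arrays, gave -0.09 and -0.03, and 0.05 and 0.04.

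In HOXC and HOXD 5 genes passed the filter. HOXD3 had Cy5 of 90.2 with siRNA 1 and 132.6 with siRNA 2, beside Cy3 of 115.7 and 96.62 that was not well above background. Its log2 ratios were -0.18 and 0.61, and 1.64 with siRNA 2 when Agilent processed signals were used. HOXD9 had 0.03 and 0.02. HOXC8 had -0.29 and 0.29, and -0.19 and 0.09 at its other probe. HOXC9 had -0.02 and -0.03, and HOXC13 -0.27 and 0.05. HOXC10, not above background, had 0.05 and 0.13, and 0.00 and 0.12. In the main processing none of these reached 2-fold, while with Agilent processed signals HOXC8 came to 1.05 with siRNA 2. Over the 22 HOX-labelled probes that did not pass, log2 ratios ran from -0.41 to 0.26 and from -0.38 to 0.20.

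One probe labelled HOXA10 is not counted for that gene. Its accession, S69027, is described in the files as a HOX C6 homeodomain fragment, and its coordinates, chr12:52709820-52709879 (hg18), lie in HOXC. It was above background in both dyes on both arrays, with log2 ratios of -0.09 and -0.08. The HOXC6 probe itself was above background in neither, so HOXC6 could not be settled from these arrays.

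Factors that act with or upstream of HOX genes were read by the same 2-fold rule. Over all genes 0.208% and 0.609% were past 2-fold upward and downward with siRNA 1, and 0.614% and 1.07% with siRNA 2. The lists are too short for their counts to be set apart from these shares. Of 9 HOX cofactors of the TALE homeodomain class, which bind DNA beside HOX proteins, 7 passed the filter and 0 were called. PKNOX1, 1 of these cofactors, had 0.19 and 0.35. Of 27 Polycomb genes 25 passed and 0 were called at 2-fold. The largest means were of PCGF3, a subunit of a variant Polycomb repressive complex, at 0.73 and 0.62, and MTF2, a partner of the EZH2 complex, at 0.75 and 0.59. Both were higher with both siRNAs, under 2-fold (limma adjusted p = 0.1126 each).

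Among 16 kept genes of 17 Trithorax and HOX activators 1 was called, PSIP1, lower with siRNA 2. PSIP1 encodes LEDGF, which tethers the MLL complex to chromatin. Its brightest probe had Cy3 of 2050 and Cy5 of 1810 with siRNA 1, and Cy3 of 1873 and Cy5 of 569.7 with siRNA 2, with log2 ratios of -0.47 and -1.996. Its next probes gave -0.17 and -0.98, and 0.05 and -0.34, so the siRNA 2 value was the lower at each, and under 2-fold at these. Among 8 kept genes of the 16 retinoic acid and CDX inputs on the array, ALDH1A3, which makes retinoic acid, was called lower with siRNA 2, at 0.65 and -1.10. Its dimmer probe gave -0.35 and -0.52, so its probes differ in sign with siRNA 1. CDX1, CDX2 and CDX4 were above background in neither dye.

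Of 17 genes flanking the clusters 16 passed the filter and 0 were called. The largest means were of PRAC1, the gene beside HOXB13, at -0.42 and -0.40 with Cy3 of 6469 and 5488, and SMUG1, at -0.30 and -0.53. EVX1, the homeobox gene next to HOXA13, had 0.17 and 0.03. PRAC1 lay below 0 on both arrays. The brighter HOXB13 probe lay above 0 on both (0.92 and 0.10), while the second HOXB13 probe gave 0.12 and -0.60. With siRNA 2 the second probe was thus below 0, as PRAC1 was. EVX1 lay within the spot SD of 0 with siRNA 2.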

How the data were processed

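Per the labels and the paper's methods, total RNA of PC3 cells was labelled after oligo-dT priming and hybridised to 2 dual-colour arrays. The authors deposited Agilent Feature Extraction 9.5.1.1 files with the mean and median spot intensity, the local background and the processed intensity of each spot. They also deposited a table of log2 ratios made by loess. Its direction was set by correlation with ratios recomputed from median signals (Pearson r of 0.958 and 0.97 across probes). Its scale is log2 by the methods. The deposited files also hold log10 ratios and p-values by the software, which gave no printed value. Probe coordinates are hg18, per the file headers, and promoters are GRCh38.p14; the builds were kept apart. Probe sequences were not used here, and a few genes of the lists are not reported here.

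Mean spot intensity was corrected by normexp (offset 50) with median local background and normalized within each array by limma 3.58.1 (loess, span of 0.3; R 4.3.3). Control spots and outlier spots (112 and 100, none of a HOX probe) were left out. A probe passed where, on each array, 0.5 or more of its spots were flagged by the software as well above background in Cy3 or in Cy5. This kept 25672 of 41000 probes and 19219 genes. Genes were named by RefSeq, 13130 through its table and 6089 by the array's label. The brightest kept probe stood for a gene. A 2-fold change per array was the call, and limma with Benjamini-Hochberg adjustment tested the mean of both arrays. When tested on simulated data with log2 changes of 1 and 2, the fit returned the mean ratios put in. With 2 arrays it called none of the changed genes at the adjusted p. The simulated spreads were taken from the difference between these 2 arrays and shuffled over genes. The simulation therefore does not show what the fit can detect in these data, where it called 1 gene. The number of arrays limits the precision, and nothing says that the arrays come from separate cultures beyond the siRNAs, so p-values measure only the spread between these 2. Members and gene lists were chosen with earlier results of these data known. By the rule for named genes, HOX genes with an absolute log2 ratio of at least 0.5 or with more than 1 probe were described on each array, with HOXA13, HOXB13 and SUB1, and of each list the members called or, with none called, the largest means. The ratios of other kept HOX genes and of KLK3, COL1A1, DCN, LUM, PDGFRA, FOLH1, EVX1 and BMI1 were added after they were seen. Alternatives were another background, normalization, signal, filter, spot or probe rule and the authors' table.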

Additional observations from a re-analysis of the deposited data

Results flagged for a closer look

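HOXD3, HOXC8 and HOXB6 lay on opposite sides of 0 with the 2 siRNAs, each value further from 0 than 0.151. That is the 95th percentile, on the siRNA 1 array, of the SD between spots of repeated probes no brighter than the median HOX gene (0.141 on the siRNA 2 array). The HOXB6 probe is brighter than those probes, and spot noise leaves out the spread between arrays. How many of all genes met the same rule was not counted. Over all genes the quartiles of the log2 ratio were -0.14 and 0.18 with siRNA 1, and -0.16 and 0.19 with siRNA 2. Values of this size were thus common, and the rule does not set these HOX genes apart. The siRNA 2 minus siRNA 1 differences in log2 ratio were 0.79 for HOXD3, 0.58 for HOXC8 and 0.52 for HOXB6. The difference was not tested, since each siRNA had 1 array. HOXD3 and HOXC8 were not above background in Cy3 on both arrays, and the second HOXB6 probe gave 0.14 and 0.05.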

How the results depend on the processing

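HOX genes at least 2-fold changed were 1 with each siRNA. With median centring in place of loess there were 3 with siRNA 1 and 2 with siRNA 2, and the median of all genes moved from 0.02 to 0.13 and 0.12. With Agilent processed signals there were 2 and 7 (6 higher, 1 lower). The authors' log2 ratios gave 2 with siRNA 1. The mean over all probes of a gene gave 0 with siRNA 2, where HOXA13 came to 0.67. Calls over all 19219 genes moved too. In the main processing 40 were past 2-fold upward and 117 downward with siRNA 1, and 118 and 205 with siRNA 2. Median centring gave 137 and 56, then 266 and 101. Processed signals gave 778 and 298, then 994 and 474. The HOX counts were not tested against these and are not read as particular to HOX genes. The HOX median with siRNA 1 was 0.12 with processed signals and -0.086 with the authors' ratios. HOX genes detected in Cy3 were 26, and in Cy5 29, by the software's weaker significance flag. The cause was not tested. The SUB1 ratio stayed between -3.33 and -2.96, and 0 HOX genes passed the adjusted p under any setting, a trended or robust prior included. HOXA9, HOXA10 and HOXA13 stayed above 0 and HOXA7 below 0 with both siRNAs under every setting run. HOXB13 lay between 0.52 and 1.25 with siRNA 1, and between -0.25 and 0.43 with siRNA 2. Slide as a block was not run, since both arrays share 1 slide. No paired analysis was possible because each siRNA had 1 array. Most HOX probes were within a few times the negative controls, which limits their ratios.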

Other observations

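Values of 1 Polycomb gene, chosen after they were seen, went in opposite directions with the siRNAs at all of its 3 probes. BMI1, a core subunit of Polycomb repressive complex 1, had log2 ratios of -0.72 and 0.38 at the brightest probe, -0.50 and 0.55 at the next and -0.33 and 0.71 at the dimmest. None reached 2-fold, and the difference was not tested.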
